A study of Bos taurus and Sus scrofa with 10 samples.

Results

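The nuclear-encoded subunits of the mitochondrial respiratory chain and of ATP synthase were followed through preimplantation development of cow and pig. The members were the rows of both gene tables that lay outside the mitochondrial chromosome and whose symbols began with NDUFA, NDUFB, NDUFC, NDUFS, NDUFV, UQCR, COX4 to COX8 or ATP5, or were SDHA, SDHB, SDHC or SDHD. Where a symbol stood on several rows, the row with the highest mean was kept. This gave 93 symbols of the 28050 in both tables together, of which 90 of 22845 were in the cow table and 61 of 21867 in the pig table. A total of 58 members were matched by symbol in both species, 32 in the cow table alone and 3 in the pig table alone. Members with no matching symbol in a table were not analysed there, so that a sum over a complex does not compare cow with pig.

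RNA was sequenced from oocytes, 2-4 cell embryos, 8-16 cell embryos, morulae and blastocysts from cattle, Bos taurus, and from pig, Sus scrofa, with 1 library for each stage of each species and 10 libraries in all. Breed, sire, the way embryos were obtained or cultured, and the number of oocytes or embryos behind a library are not given in the sources used here. RNA was isolated with a kit for very small samples (PicoPure), amplified as cDNA (Ovation RNA-Seq System V2) and made into libraries with 8 PCR cycles, per the labels' protocols. With 1 library per stage no difference has a replicate check, no test against replicate spread was possible, and the intervals given cover counting error only.

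The inner mitochondrial membrane carries the respiratory complexes and ATP synthase. Complex I oxidises NADH and complex II succinate, complex III passes their electrons to cytochrome c, complex IV hands them to oxygen, and ATP synthase uses the proton gradient that results. Most subunits are encoded in the nucleus and imported, while a few hydrophobic ones are encoded in mitochondrial DNA. Oocytes carry a large stock of mitochondria, which cleavage divides among the cells, and the blastocyst is the stage at which the trophectoderm begins to pump ions and water into its cavity.

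Levels are given as reads per 1000000 reads of the library (RPM), in the order oocyte, 2-4 cell, 8-16 cell, morula and blastocyst. RPM is not divided by transcript length, so that it compares a gene between stages and not 1 gene with another. A change is the difference of log2(RPM + 1) between 2 stages, which understates the change of low genes, and 0 reads enter it as 0.9 of a read, as the deposited values have them. A gene was compared where it reached 1 RPM in one of both stages, and only a change of 2 or more on that scale, which is 4-fold, is called a rise or a fall. In bulk samples of this kind, more cells, more RNA per cell and a shift in the rest of the RNA cannot be told apart. Depth ranged from 3002751 reads in the pig morula to 14182046 in the cow blastocyst, where 3 reads, the upper limit that a count of 0 allows, are 0.999 and 0.212 RPM.

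The marker genes of the stages moved with the labels. The summed level of oocyte markers such as ZP3, GDF9 and ZAR1 was 6857 RPM in the cow oocyte and 0.282 RPM in the cow blastocyst, where 9 of 10 were at 0 reads, and 8671 and 39.7 RPM in pig. Trophectoderm markers such as KRT8, KRT18 and GATA3 had a summed level of 71.2 RPM in the cow oocyte and 3796 RPM in the cow blastocyst, and 54.8 and 8552 RPM in pig. Epiblast markers summed to 91.1 RPM in the cow blastocyst and 3.75 RPM in the pig blastocyst, with NANOG and SOX2 at 0 reads in the latter. Cumulus cell markers summed to 460.2 RPM in the cow oocyte and 100.3 RPM in the cow blastocyst, and to 164.6 and 338.1 RPM in pig, with 5 of 10 and 3 of 8 of them at 0 reads in the blastocysts. The 4 blood and stroma markers summed to 0 to 8.28 RPM in the cow libraries and 2.90 to 10.99 RPM in those of pig. Among them HBB was at 0 reads in all 10 libraries, PTPRC had 9 to 41 reads in each pig library and 27 and 22 reads in the cow morula and blastocyst, and COL1A1 had 45 reads in the cow 8-16 cell library. The part of any of these cell types in the members' levels was not tested.

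In both species the members took a far larger share of the reads in the blastocyst than in the oocyte. Summed over the 90 cow members, the level was 1294, 1408, 2083, 3159 and 6327 RPM, which is 4.89 times higher in the blastocyst than in the oocyte. The 61 pig members summed to 1011, 434.4, 686.6, 3139 and 6866 RPM, 6.79 times higher in the blastocyst. In cow the sum was higher at every step, whereas in pig it was lowest at the 2-4 cell stage, 2.33 times below the oocyte, and 4.57 times higher in the morula than at the 8-16 cell stage.

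As a share of all reads, the cow members took 0.129% in the oocyte (95% Wilson interval 0.126% to 0.133%) and 0.633% in the blastocyst (0.629% to 0.637%). The pig members took 0.101% in the oocyte (0.0977% to 0.105%), 0.0434% at the 2-4 cell stage (0.0415% to 0.0455%) and 0.687% in the blastocyst (0.678% to 0.695%). None of these counting intervals overlapped within a species. The sums rest on every member and need no filter on low values.

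**Figure D1:**
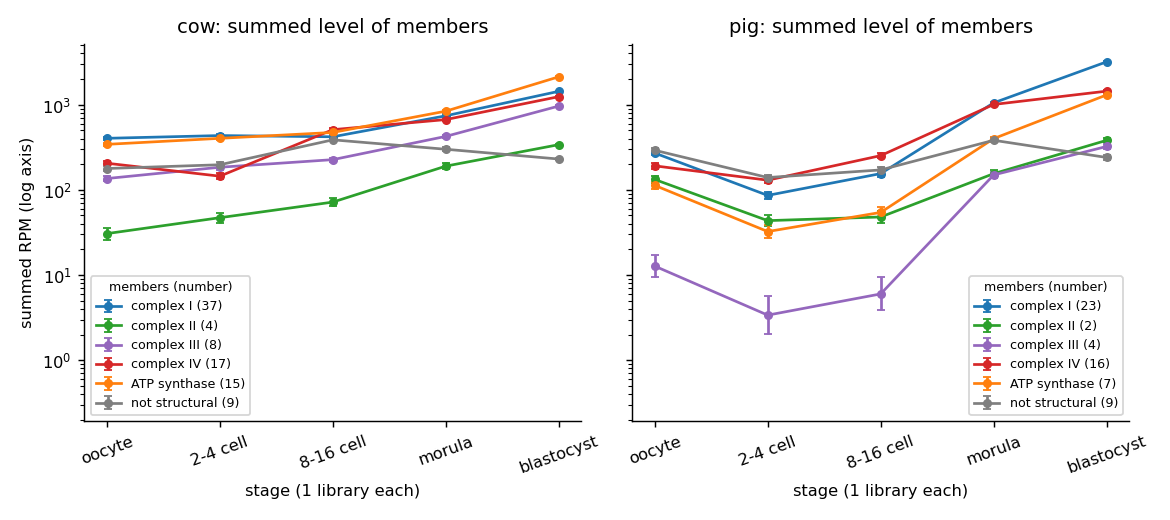
Summed level of the members of each respiratory complex (RPM, log axis) in the 5 cow libraries (left) and the 5 pig libraries (right), with 95% Wilson counting intervals and the number of members in the legend. The 5 complexes are highest in the blastocyst in both species, the pig lines dip at the 2-4 cell stage, and the grey line of members that are not structural subunits does not follow the others upward.

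Gene by gene, 86 cow and 55 pig members reached 1 RPM in some library. The highest level of 70 of these 86 cow members (81.4%) and of 43 of the 55 pig members (78.2%) was in the blastocyst, against 27.6% of all cow genes and 32.6% of all pig genes that reached 1 RPM. From the 8-16 cell stage on, 63 cow members (73.3%) and 40 pig members (72.7%) were higher at each of both remaining steps, against 20.9% and 22.3% of all genes.

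From oocyte to blastocyst, 54 of the 85 cow members compared rose, against 21.8% of all genes compared, and 1 fell, against 18.4%. Their median change was 2.71, or 2.67 with genes at 0 reads set to 3 reads, beside 0.18 over all genes. In pig 42 of 55 rose, against 26% of all genes, and 2 fell, against 19.2%, with a median of 3.31, or 3.11 with the floor, beside 0.43. A member below 1 RPM in the oocyte had to be higher in the blastocyst to be compared at all, which held for 16 cow and 14 pig members. Among members that had at least 1 RPM in the oocyte, 38 of 69 rose in cow and 29 of 41 in pig. The share of all genes under that condition was not worked out, so that these counts have no matching background. The same rule of comparison applied to the single steps below. Of the 27 pig members compared whose span overlaps no other row 20 rose, and of the 28 that overlap one 22 rose. Scaling by other means moved the all-gene median of this comparison by -0.16 to 0.42 in cow and by -0.36 to 0.09 in pig, and relative to it the members' median was 2.34 to 2.68 higher in cow and 2.62 to 3.11 higher in pig over all alternatives tried.

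Complex I held 37 members in cow and 23 in pig. Its summed level was 402.4, 433.5, 419.3, 739.6 and 1433 RPM in cow and 270.3, 86.02, 155.1, 1049 and 3181 RPM in pig, which put the blastocyst 3.56 and 11.8 times above the oocyte. In cow the sum changed little up to the 8-16 cell stage and was higher only afterwards. In pig it was 3.14 times lower at the 2-4 cell stage than in the oocyte and 6.77 times higher in the morula than at the 8-16 cell stage. From oocyte to blastocyst 22 of 37 cow members and 20 of 23 pig members rose, against 21.8% and 26% of all genes, with median changes of 2.36 and 3.90, and none fell, against 18.4% and 19.2%.

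The nuclear core of complex I consists of the subunits that bind NADH and carry its electrons along iron-sulfur clusters. NDUFV1, which binds NADH and the flavin, had 0.811, 2.48, 4.79, 8.72 and 31.1 RPM in cow and 0, 0, 2.84, 9.32 and 69.2 RPM in pig. It rose by 4.15 in cow and by 5.79 in pig, where no read was found in the oocyte and the 2-4 cell library and the blastocyst was at least 77.9-fold higher. Most of the pig NDUFV1 row (5850 of 8894 bases) overlaps a row on the other strand, ENSSSCG00000012895, whose own values of 0, 0, 2.53, 8.99 and 65.95 RPM are nearly the same, and the counting's use of strand is not given, so that reads of both cannot be told apart. NDUFV2, an iron-sulfur partner of NDUFV1, had 43.6, 32.2, 5.52, 15.1 and 93.6 RPM in cow and 18.4, 6.04, 3.16, 32.97 and 72.1 RPM in pig. It differed from NDUFV1 in cow: it started high, fell by 2.35 from the 2-4 to the 8-16 cell stage, and rose by 2.55 from morula to blastocyst.

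NDUFS1, the largest subunit and the carrier of several iron-sulfur clusters, had 107.7, 127.3, 37.001, 70.8 and 60.3 RPM in cow and 15.4, 4.11, 16.4, 87.9 and 270.8 RPM in pig. The cow level was highest in the oocyte and the 2-4 cell embryo and changed by -0.83 to the blastocyst, too little to be called, while the pig level rose by 4.05, 17.6-fold in RPM. None of the other core subunits described here was lower in the cow blastocyst than in the cow oocyte. The pig NDUFS1 row (chromosome 15, 109409768 to 109452435, minus strand) shares 611 bases with EEF1B2 on the other strand, which had 21.3, 7.73, 51.2, 568.8 and 1051 RPM, and the part of its reads was not tested.

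NDUFS3, a subunit of the matrix arm, had 4.26, 5.86, 4.23, 6.41 and 59.1 RPM in cow and 89.4, 10.4, 31.3, 209.5 and 205.6 RPM in pig. It thus took different courses: the cow level stayed between 4.23 and 6.41 RPM until the morula and rose by 3.02 at the last step, whereas the pig level started high, fell by 2.99 to the 2-4 cell stage and was as high in the morula as in the blastocyst. The fall of pig NDUFS3 was the largest of any member from oocyte to 2-4 cell. The pig NDUFS3 row shares 329 of its 10581 bases with KBTBD4 on the other strand, and the part of its reads was not tested.

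NDUFS7 and NDUFS8 hold the last iron-sulfur clusters before the quinone. NDUFS7 had 4.26, 2.25, 2.39, 4.36 and 9.38 RPM in cow and 0, 0, 1.26, 4.33 and 59.5 RPM in pig, and NDUFS8 had 1.83, 2.25, 2.39, 6.92 and 11.5 RPM in cow and 0, 0, 0.632, 0.666 and 46.9 RPM in pig. Both had 0 reads in the pig oocyte and 2-4 cell embryo and were highest in the pig blastocyst, at least 67.01-fold and 52.8-fold above the oocyte. In cow NDUFS8 rose by 2.14, and NDUFS7 was 0.98 higher, below the threshold. From morula to blastocyst pig NDUFS8 had the largest rise of all members, 4.85.

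Among the 30 cow and 16 pig accessory subunits, which surround the core and stabilise it, 18 and 15 rose from oocyte to blastocyst, beside the same 21.8% and 26% of all genes, and none fell. The largest cow rises were those of NDUFC2, with 0.406, 0, 7.73, 17.7 and 47.3 RPM and a change of 5.10, and NDUFB11, with 0, 0.676, 8.28, 13.8 and 39.1 RPM and a change of 5.08. Both had 2 or fewer reads in the cow oocyte, and NDUFB11, with none there, was at least 64.3-fold higher in the blastocyst. NDUFB3 followed the same course, with 0.811, 0.901, 25.4, 29.2 and 51.8 RPM and a change of 4.87.

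In pig the largest rise of any member was that of NDUFB10 (chromosome 3, 40001109 to 40005691, minus strand), with 8.88, 3.38, 12.3, 139.5 and 841.9 RPM and a change of 6.41. The blastocyst was 94.8-fold above the oocyte, and both of the last steps were called rises. The cow row had 0, 1.13, 0.552, 1.28 and 21.6 RPM, with nearly the whole rise at the last step. In pig 2002 of the 4583 bases of NDUFB10 overlap ENSSSCG00000033697 on the other strand, which had 8.59, 3.14, 12.6, 137.9 and 807.5 RPM, so that the reads of these rows cannot be told apart.

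NDUFA10 and NDUFA11 had at most 1.29 RPM in any library before the morula. NDUFA10 had 0.203, 0, 1.29, 7.18 and 7.26 RPM in cow and 0, 0.483, 0.632, 2.66 and 86.3 RPM in pig, and NDUFA11 had 0, 0, 0.552, 3.08 and 11.2 RPM in cow and 0.888, 0, 0, 6.99 and 123.1 RPM in pig. All 4 of these courses were called rises over the whole period, and in pig the steps from morula to blastocyst, 4.57 and 3.96, were the largest after that of NDUFS8.

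NDUFA13, known also for a role in cell death, had 1.42, 2.93, 6.995, 15.9 and 52.2 RPM in cow and 0, 0, 15.5, 5.33 and 56.03 RPM in pig. In pig 0 reads in the first 2 libraries were followed by 49 reads at the 8-16 cell stage, the largest rise of that step (3.76), and a change of -1.38 to the morula.

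The largest complex I rises of pig between the 8-16 cell stage and the morula were those of NDUFB8 and NDUFS5. Pig NDUFB8 had 11.5, 2.42, 0.948, 54.6 and 59.5 RPM, with a rise of 4.84, and pig NDUFS5 had 11.5, 3.87, 0.948, 34.3 and 86.3 RPM, with a rise of 4.18. In cow the same 2 genes had 24.3, 33.3, 25.6, 31.03 and 49.1 RPM and 5.27, 10.8, 2.21, 8.98 and 23.7 RPM, and neither passed the threshold at that step. NDUFA12, a late addition to the complex measured in cow alone, had 5.68, 4.28, 5.34, 48.2 and 68.96 RPM and the largest rise of a structural complex I subunit at that step in cow, 2.96.

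Some accessory subunits of cow dipped. NDUFB1 had 21.7, 4.06, 32.8, 59.2 and 21.2 RPM, falling by 2.17 from oocyte to 2-4 cell, rising by 2.74 to the 8-16 cell stage and ending with a change of -0.04 from the oocyte. NDUFA3 had 5.88, 10.8, 0.552, 2.82 and 11.4 RPM and fell by 2.93 from the 2-4 to the 8-16 cell stage, the largest fall of that step. NDUFA8 had 4.06, 15.996, 2.95, 9.75 and 25.03 RPM and fell by 2.11 at the same step after a level 1.75 higher in the 2-4 cell embryo. NDUFA6 had 27.4, 7.89, 6.81, 10.3 and 36.8 RPM in cow and 14.8, 6.28, 4.11, 22.98 and 40.2 RPM in pig, lower in the middle stages of both, with no called change between oocyte and blastocyst. The other cow complex I subunits that were compared and did not pass the threshold over the whole period lay between 0.74 (NDUFAB1) and 1.98 (NDUFS5).

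Complex II, the succinate dehydrogenase shared with the citric acid cycle, is encoded wholly in the nucleus. SDHA, which holds the flavin and oxidises succinate, had 8.32, 13.5, 5.71, 32.3 and 128.9 RPM in cow and 18.9, 10.6, 16.7, 73.6 and 156.04 RPM in pig. SDHB, the iron-sulfur subunit, had 10.5, 9.46, 15.3, 42.8 and 64.2 RPM in cow and 113.4, 32.9, 31.3, 81.3 and 225.2 RPM in pig. SDHA rose in both species, by 3.80 and 2.98. SDHB rose by 2.50 in cow and was only 0.98 higher in pig, where the oocyte already held 113.4 RPM. The pig SDHA row shares 8089 of its 97403 bases with CCDC127 on the other strand, and the part of its reads was not tested. CCDC127 had 11.5, 3.62, 10.4, 39.3 and 8.58 RPM.

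The membrane anchors SDHC and SDHD were measured in cow alone. SDHC had 8.93, 21.2, 37.2, 99.5 and 129.8 RPM and SDHD 2.84, 2.93, 13.6, 15.1 and 16.1 RPM. Both rose, by 3.72 and 2.16, so that all 4 cow members of the complex passed the threshold. SDHC was higher at every step, while SDHD gained most between the 2-4 and the 8-16 cell stage and little after it.

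Complex III had 8 members in cow and 4 in pig, and its summed level was 7.09 and 25.4 times higher in the blastocyst than in the oocyte. UQCRC2, a core protein of the matrix side, had 11.8, 13.97, 10.1, 50.8 and 82.5 RPM in cow and 2.07, 0.725, 4.42, 122.9 and 152.6 RPM in pig. It rose by 2.71 and 5.64, and most of the pig rise, 4.51, came between the 8-16 cell stage and the morula. The pig UQCRC2 row shares 4122 of its 31082 bases with PDZD9 on the other strand, which had 4.44, 4.11, 5.05, 74.3 and 73.5 RPM, and the part of its reads was not tested. The partner core protein UQCRC1 was measured in cow, with 1.01, 1.80, 1.66, 12.3 and 42.4 RPM and a rise of 4.43.

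UQCRFS1, the Rieske iron-sulfur protein, had 31.03, 15.5, 110.1, 166.7 and 263.3 RPM in cow and rose by 3.04. The pig row of that symbol was at 0 reads in all 5 libraries. It spans 1081 bases on chromosome 4, whereas the cow row spans 4782 bases, and nothing is drawn from it. CYC1, the haem subunit of complex III outside the symbol rule, had 2.43, 2.03, 2.39, 17.7 and 50.4 RPM in cow and 0.296, 0, 0.948, 7.99 and 117.7 RPM in pig.

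The small complex III subunits followed. UQCRH, the hinge protein next to cytochrome c1, had 23.9, 97.8, 21.4, 78.7 and 401.1 RPM in cow, where it was 1.99 higher in the 2-4 cell embryo, just under the threshold and the largest such change of that step, then fell by 2.14 and rose by 2.33 at the last step. UQCR10 had 3.45, 3.60, 16.2, 32.3 and 40.5 RPM in cow and 3.26, 0.967, 0.632, 11.3 and 100.5 RPM in pig and rose in both, by 3.22 and 4.58. UQCR11 had no read in cow before the morula, with 0, 0, 0, 3.08 and 10.6 RPM. UQCRQ had 8.93, 6.31, 1.29, 3.33 and 23.4 RPM in cow and 7.40, 1.69, 0.948, 15.3 and 69.98 RPM in pig, with a called rise over the whole period in pig alone. The pig UQCRQ row shares 573 of its 1840 bases with GDF9 on the other strand, an oocyte gene that had 1252 RPM in the oocyte and 15.3 RPM in the blastocyst. UQCRB was measured in cow, with 55.6, 45.1, 65.3, 76.7 and 98.6 RPM and no called change.

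Complex IV is the complex with the most isoforms restricted to certain tissues, and the isoforms could be followed separately. COX4I1, the isoform found in most tissues, had 6.09, 9.91, 13.99, 29.2 and 153.7 RPM in cow and 0.888, 0.483, 2.84, 48.6 and 157.9 RPM in pig. It rose by 4.45 and 6.40, and in pig the oocyte value rested on 3 reads. COX4I2, the isoform associated with lung and with low oxygen, was at 0 reads in all 10 libraries. This count allows up to 0.212 RPM in the cow blastocyst and 0.804 RPM in the pig blastocyst. The pig COX4I2 row lies wholly inside BCL2L1 on the other strand, which had 233.6, 214.6, 344, 22.6 and 98.4 RPM. How reads shared by both rows were counted is not given, so that the pig limit is uncertain.

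COX5A and COX5B have no such isoforms. COX5A had 99.6, 52.3, 50.6, 111.3 and 198.7 RPM in cow and 20.7, 7.73, 8.53, 116.9 and 95.2 RPM in pig, with a called rise over the whole period in pig alone. COX5B had 4.06, 6.31, 16.4, 36.4 and 196.6 RPM in cow and 3.55, 0.483, 5.05, 19.98 and 260.6 RPM in pig. Its rise of 5.29 was the largest of the cow members and that of 5.84 among the largest in pig, 48.5-fold and 73.4-fold in RPM. The counting intervals of the cow row (chromosome 11, 2916017 to 2918064, minus strand) ran from 2.63 to 6.27 RPM in the oocyte and from 189.4 to 204.02 RPM in the blastocyst. No other row overlaps COX5B in either table (pig chromosome 3, 56629272 to 56632180, minus strand).

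COX6A1, the isoform of most tissues, had 2.23, 6.76, 13.8, 19.7 and 44.6 RPM in cow and 105.1, 83.6, 114.7, 292.4 and 276.7 RPM in pig. It rose by 3.82 in cow and was 1.39 higher in pig, where the oocyte level was already high and where a row on the other strand over 2002 of its bases had 77.9, 73.7, 87.5, 229.1 and 44.2 RPM. COX6A2, the heart and muscle isoform, was at 0 reads in all 5 cow libraries. In pig COX6A2 had 0, 2.42, 9.16, 16.7 and 12.3 RPM, with 0 reads in the oocyte, and the blastocyst was at least 13.9-fold above the oocyte.

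COX6B1 was measured in cow, with 0, 0.451, 5.71, 6.67 and 17.7 RPM. Its row spans 479 bases on chromosome 5, lies wholly inside DERA on the other strand and is on another chromosome than the gene of that symbol in RefSeq, so that its values are uncertain. COX6B2, the testis isoform, had 0.811, 1.13, 0, 0 and 0.635 RPM in cow, at most 9 reads in a library, and 0 reads in pig. COX6C, which has no isoform, had 28.6, 23.7, 38.8, 82.6 and 109.6 RPM in cow and 34.3, 19.6, 69.8, 424.9 and 330.3 RPM in pig, highest in the pig morula.

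COX7A2, the isoform of most tissues, had 19.3, 22.3, 108.8, 110.8 and 159.00 RPM in cow and 1.18, 0.725, 15.8, 66.3 and 175.9 RPM in pig. The pig rise of 6.34, 148.5-fold in RPM, was the third largest among the pig members, and no other row overlaps it (chromosome 1, 90696751 to 90703485, plus strand). In cow most of the increase came between the 2-4 and the 8-16 cell stage, a rise of 2.24. COX7A1, the heart and muscle isoform, had at most 2 reads in a cow library, whereas the pig row had 16.6, 13.3, 24.6, 12.7 and 108.6 RPM and rose by 2.64. The pig COX7A1 row shares 1382 of its 3493 bases with CAPNS1 on the other strand, which had 19.5, 20.3, 36.01, 19.3 and 154.7 RPM, so that the reads of these rows cannot be told apart.

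COX7B had 18.7, 2.03, 82.1, 102.6 and 71.4 RPM in cow. From oocyte to 2-4 cell it fell by 2.70, the largest such change of the cow members, and from the 2-4 to the 8-16 cell stage it rose by 4.78, again the largest. The pig COX7B row was at 0 reads in all 5 libraries. It lies on chromosome 5 inside ALDH1L2 on the other strand, whereas the cow row lies on the X chromosome. COX7B2, the testis isoform measured in pig, had 4.74, 1.21, 0.316, 2.997 and 0 RPM and fell by 2.21 over the whole period. COX7C, measured in cow, had 4.06, 1.58, 59.8, 50.5 and 87.01 RPM, and its rise of 4.56 to the 8-16 cell stage was exceeded only by that of COX7B.

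Of the COX8 isoforms, COX8A of most tissues and COX8B of heart and muscle were measured in cow. COX8A had 0.406, 0.451, 2.76, 5.13 and 38.2 RPM and COX8B 0.609, 2.93, 2.95, 7.95 and 38.9 RPM. Both rose, by 4.80 and 4.63. The COX8A row spans 448 bases and is on another chromosome than the RefSeq gene of that symbol. In pig COX8C, the testis isoform, had 3.55, 0, 1.26, 2.997 and 20.1 RPM and rose by 2.21, while COX8H was at 0 reads.

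NDUFA4, once assigned to complex I and now counted as a subunit of complex IV, had 20.5, 14.6, 112.1, 104.4 and 124.7 RPM in cow. It rose by 2.55, with a rise of 2.85 at the 8-16 cell stage. The pig NDUFA4 row spans 584 bases and was at 0 reads. NDUFA4L2, the paralogue induced by low oxygen, had at most 1 read in a cow library and 0.592, 0.242, 0, 0 and 2.41 RPM in pig.

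Summed over the complex, the level was 205.3, 144.6, 508.4, 667.6 and 1241 RPM in cow and 191.3, 129.8, 252.04, 1004 and 1440.0 RPM in pig. In cow the largest step was that from the 2-4 to the 8-16 cell stage, 3.52 times higher, a step at which the cow complex I sum was 0.97 times its earlier level. In pig the largest step was that to the morula, 3.99 times higher.

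ATP synthase had 15 members in cow and 7 in pig, and its sum was 6.21 and 11.5 times higher in the blastocyst than in the oocyte. ATP5A1, the alpha subunit of the catalytic head, had 46.2, 100.5, 20.2, 129.3 and 396.1 RPM in cow and 17.2, 3.14, 16.4, 183.2 and 557.4 RPM in pig. It rose in both over the whole period, by 3.07 and 4.94. The species went opposite ways from the 2-4 to the 8-16 cell stage, where it fell by 2.26 in cow and rose by 2.07 in pig. With median scaling 2 members in place of 5 fell in cow at that step, and 2 in place of 6 rose in pig. Cow NDUFA3 and NDUFV2 fell more than ATP5A1, and pig NDUFA13 and COX7A2 rose more. Both calls of ATP5A1 may therefore be lost under that scaling. ATP5B, the catalytic beta subunit, was measured in cow, with 29.8, 42.8, 135.3, 255.4 and 601.3 RPM, higher at every step.

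The c-ring, through which protons pass, is encoded by several genes for 1 mature protein. ATP5G1 had 12.6, 3.83, 6.07, 20.5 and 75.6 RPM and ATP5G3 15.6, 30.6, 62.96, 52.6 and 181.2 RPM in cow. ATP5G2 had 1.83, 1.80, 4.42, 11.5 and 65.999 RPM in cow and 11.5, 8.46, 7.26, 10.99 and 103.5 RPM in pig. All rose from oocyte to blastocyst, the 3 cow genes by 2.50, 3.45 and 4.57, and pig ATP5G2 by 3.06, with a rise of 3.12 at the last step alone. ATPIF1, the inhibitor that keeps the enzyme from running backwards and no member by symbol, had 5.27, 9.01, 8.47, 10.5 and 58.7 RPM in cow and 6.22, 1.45, 2.21, 24.98 and 298.9 RPM in pig.

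The stalk subunits behaved less evenly. ATP5D, the delta subunit, had 1.01, 2.25, 0.184, 16.9 and 4.51 RPM in cow and 1.18, 0, 1.58, 5.33 and 44.2 RPM in pig. In cow it rose by 3.92 to the morula and changed by -1.70 to the blastocyst, and in pig it rose by 2.84 at the last step. ATP5C1, ATP5F1 and ATP5O, the gamma, b and OSCP subunits, were lower in the pig 2-4 cell embryo than in the pig oocyte, where ATP5C1 (-2.08) and ATP5F1 passed the threshold. Their cow changes at that step lay within 1 of 0.

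The other ATP synthase members of cow, ATP5E, ATP5H, ATP5I, ATP5J, ATP5J2 and ATP5L, were all higher in the blastocyst than in the oocyte. ATP5J2 rose most, by 4.72 from 3 reads in the oocyte, and ATP5J was 0.60 higher. ATP5I had 0.811, 0.676, 3.13, 11.5 and 15.8 RPM in cow and 3.26, 2.90, 1.26, 14.3 and 78.3 RPM in pig and rose in both.

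The symbol rule also took 9 members that are not structural subunits: the complex I assembly factors NDUFAF1 to NDUFAF7, COX7A2L, which takes part in joining complexes III and IV, and ATP5S, a protein related to the coupling of ATP synthase. Their sum was 177.9, 196.9, 386.2, 299.3 and 229.8 RPM in cow and 291.3, 139.4, 171.2, 381.6 and 239.7 RPM in pig, so that the blastocyst held 1.29 and 0.82 times the oocyte level, unlike each of the 5 complexes. From oocyte to blastocyst 3 of 9 rose and 1 fell in cow, where 21.8% and 18.4% of all genes did, and 4 rose and 1 fell in pig, where 26% and 19.2% did. With 9 members, the cow counts are near the share of all genes.

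NDUFAF2, a paralogue of NDUFA12 that acts late in complex I assembly, had 6.90, 9.69, 191.4, 129.3 and 10.01 RPM in cow and 1.78, 14.5, 34.4, 81.6 and 26.5 RPM in pig. It was highest at the 8-16 cell stage in cow and in the morula in pig. The cow level rose by 4.17 to the 8-16 cell stage and fell by 3.56 from morula to blastocyst, the only called fall of a cow member at that step. In pig it had the only called rise of a member from oocyte to 2-4 cell, 2.48.

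NDUFAF4 had 25.2, 26.4, 20.1, 21.5 and 6.91 RPM in cow and 41.7, 17.4, 24.95, 73.9 and 1.07 RPM in pig. The pig level fell by 5.18 from morula to blastocyst, the largest change of any member at any single step, and stood 38.9-fold below the oocyte in the blastocyst, with 4 reads. In cow the change from oocyte to blastocyst was -1.73. The pig row (chromosome 1, 64037673 to 64045146, minus strand) lies wholly inside ENSSSCG00000037906 on the other strand, which had 51.2, 28.5, 36.6, 80.6 and 5.63 RPM, and the reads of both cannot be told apart. No row overlaps cow NDUFAF4.

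The remaining assembly factors split. NDUFAF3, a partner of NDUFAF4, had 0.811, 1.58, 1.29, 2.56 and 22.8 RPM in cow and 0.592, 1.45, 0.316, 8.66 and 22.5 RPM in pig and rose in both, although the pig row lies wholly inside DALRD3 on the other strand. NDUFAF5 had 3.45, 2.48, 15.8, 24.9 and 27.2 RPM in cow and 2.07, 1.21, 8.21, 32.6 and 46.9 RPM in pig and also rose in both, whereas NDUFAF6 had 2.43, 2.25, 2.02, 46.7 and 50.7 RPM in cow and 2.37, 0, 2.21, 9.66 and 5.63 RPM in pig and rose in cow alone. NDUFAF7, a methyltransferase of the assembling complex, had 10.8, 8.11, 4.79, 3.59 and 9.45 RPM in cow and 48.3, 42.04, 48.96, 24.6 and 12.1 RPM in pig and NDUFAF1 7.30, 7.89, 10.5, 16.9 and 7.19 and 7.11, 6.28, 6.63, 11.7 and 31.1 RPM, none of them with a called change over the whole period.

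COX7A2L had 100.2, 126.6, 136.04, 50.3 and 94.8 RPM in cow and 187.4, 55.3, 45.5, 132.9 and 78.6 RPM in pig. It was high from the oocyte on in both species and not higher in the blastocyst, and its largest cow change at one step was -1.42, to the morula. In pig 16177 of its 32900 bases overlap ENSSSCG00000037778 on the other strand, which had 184.7, 48.3, 36.95, 101.9 and 79.4 RPM.

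ATP5S was the only member called in opposite directions over the whole period. It had 20.9, 11.9, 4.23, 3.59 and 0.705 RPM in cow, lower at every step, and fell by 3.68 (29.6-fold), and 0, 1.21, 0, 5.99 and 15.3 RPM in pig, with a rise of 3.68 from 0 reads, at least 17.2-fold. The cow row (chromosome 10, 43265126 to 43277198, plus strand) overlaps no other row. The pig row (chromosome 1, 180069138 to 180081412, plus strand) shares 2183 of its 12275 bases with CDKL1 on the other strand, which had 8.59, 7.73, 10.4, 5.33 and 8.04 RPM and did not follow ATP5S.

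**Figure D2:**
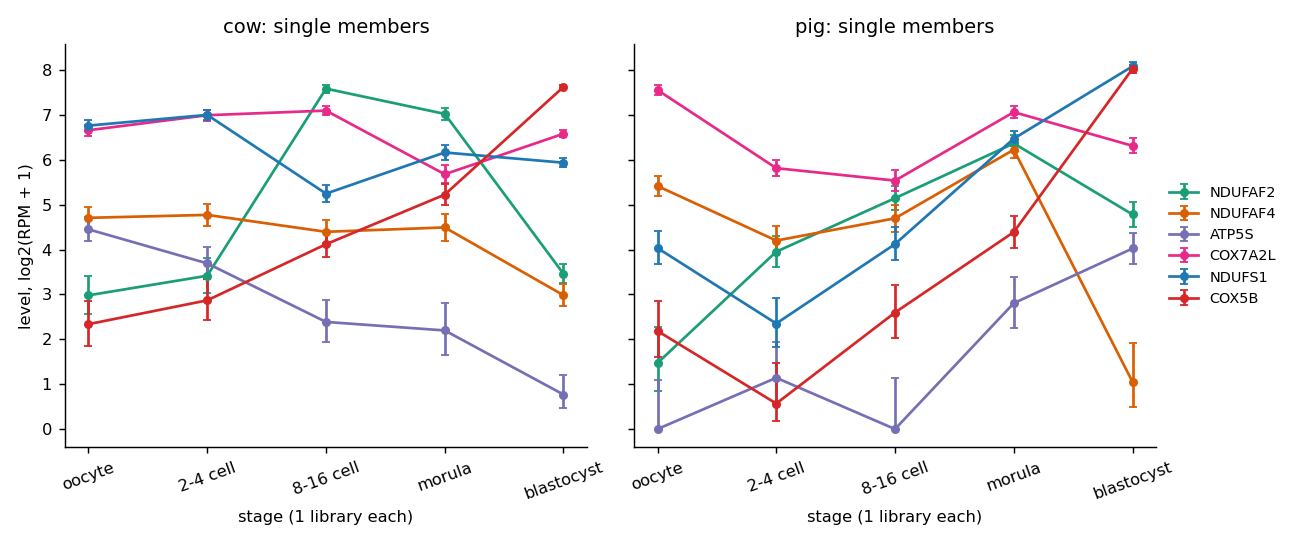
Level of 6 members in log2(RPM + 1) over the 5 stages of cow (left) and pig (right), 1 library per point, with 95% Wilson counting intervals; lines of different genes are not comparable in height because RPM is not divided by length. COX5B has its own highest level in the blastocyst in both species, and NDUFAF2 peaks before the blastocyst. Pig NDUFAF4 ends at 1.07 RPM, and ATP5S goes down in cow and up in pig.

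The increase was then followed step by step in each species, without a test of the difference between them. From oocyte to 2-4 cell the cow members hardly moved: of 75 compared none rose, against 0.196% of all genes, 2 fell, against 0.178%, and the median change was 0.20 beside 0.27 over all genes. The pig members were lower at that step: of 45 compared 1 rose, against 3.26%, and 5 fell, against 2.17%, and 40 of 45 lay below 0, with a median of -1.12 beside -0.14. The 5 that fell were NDUFS3, NDUFB9, ATP5A1, ATP5C1 and ATP5F1. NDUFB9 had 35.5, 5.07, 11.1, 75.9 and 302.7 RPM in pig and fell by 2.59. Its pig row shares 102 and 251 of its 7983 bases with MTSS1 and TATDN1 on the other strand, whose part was not tested. With median scaling 2 of 45 members fell, against 1.43% of all genes, and 1 rose, against 4.59%. Of 21 members whose span overlaps no other row, 1 rose and 1 fell.

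From the 2-4 to the 8-16 cell stage, 14 of 84 cow members rose, against 12.6% of all genes, and 5 fell, against 14.6%, a share of rises near the background. Their median was 0.41 beside -0.44. The 14 were 5 subunits of complex IV (COX7B, COX7C, NDUFA4, COX7A2 and COX6B1), 6 of complex I (NDUFB3, NDUFB2, NDUFC2, NDUFB1, NDUFA5 and NDUFB11), UQCRFS1 and the assembly factors NDUFAF2 and NDUFAF5. The 5 that fell were NDUFA3, NDUFV2, ATP5A1, UQCRH and NDUFA8. With median scaling 19 of 82 rose, against 15.1% of all genes, and 2 fell, against 9.67%. With quantile normalisation 18 of 84 rose, against 14.2%, and 2 fell, against 11.9%.

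In pig 6 of 48 members rose at that step, against 4.33%, and none fell, against 0.543%, with a median of 0.84, or 0.54 with the floor, beside 0.21. They were NDUFA13, COX7A2, NDUFB2, ATP5A1, NDUFAF5 and COX5B. Of the 48, 12 were below 1 RPM at the 2-4 cell stage and had to be higher at the 8-16 cell stage to be compared. Among the 36 with at least 1 RPM before, 3 rose, with no matching share of all genes worked out. NDUFB2 had 3.45, 3.83, 34.4, 33.3 and 19.2 RPM in cow and 7.40, 3.14, 16.4, 30.97 and 194.9 RPM in pig, and was with COX7A2 and NDUFAF5 called in both species, where 3 of 44 members were, against 1.31% of shared genes. With median scaling 2 of 49 pig members rose, against 3.17% of all genes, and none fell, against 1.1%. With quantile normalisation 2 of 47 rose, against 3.18%, and 1 fell, against 1.78%. Under both scalings the rises were near the background. The median of the 21 pig members that overlap no other row was 0.07, below that of all genes.

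From the 8-16 cell stage to the morula, 10 of 85 cow members rose, against 6.67%, and none fell, against 5.15%, with a median of 0.91 beside 0.07. They were NDUFAF6, ATP5D, NDUFA12, ATP5A1, NDUFA9, UQCRC1, SDHA, UQCRC2, NDUFC1 and ATP5J2. In pig 29 of 53 rose, against 12%, and none fell, against 11.3%, with a median of 2.15, or 2.00 with the floor, beside 0.18. Of the 53, 13 were below 1 RPM at the 8-16 cell stage and had to be higher in the morula to be compared. Among the 40 with at least 1 RPM there, 18 rose, with no matching share of all genes worked out. These 29 were 14 of 22 complex I members, 5 of 7 ATP synthase members, 4 of 10 complex IV members, the 3 complex III members compared, SDHA and the non-structural NDUFAF3 and ATP5S. ATP5A1, UQCRC2 and SDHA rose in both species, 3 of 49 members, against 1.1% of shared genes.

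From morula to blastocyst, 14 of 85 cow members rose, against 11.9%, and 1 fell, against 11.5%, with a median of 0.90 beside -0.11. NDUFB7, NDUFB10 and NDUFS3 rose most, by 3.39, 3.31 and 3.02. NDUFB7 had 0.811, 2.70, 1.84, 1.03 and 20.2 RPM in cow and 1.18, 0.242, 0.316, 5.66 and 49.1 RPM in pig. The pig NDUFB7 row lies wholly inside TECR on the other strand, which had 12.1, 2.90, 3.79, 18.3 and 89.8 RPM, so that the reads of both cannot be told apart. In pig 21 of 55 rose, against 13.8%, and 1 fell, against 13.8%, with a median of 1.39 beside -0.11. Here 6 of 50 members rose in both species, among them NDUFB7, NDUFB10, UQCRQ, ATP5G2 and COX5B, against 4.19% of shared genes.

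**Figure D3:**
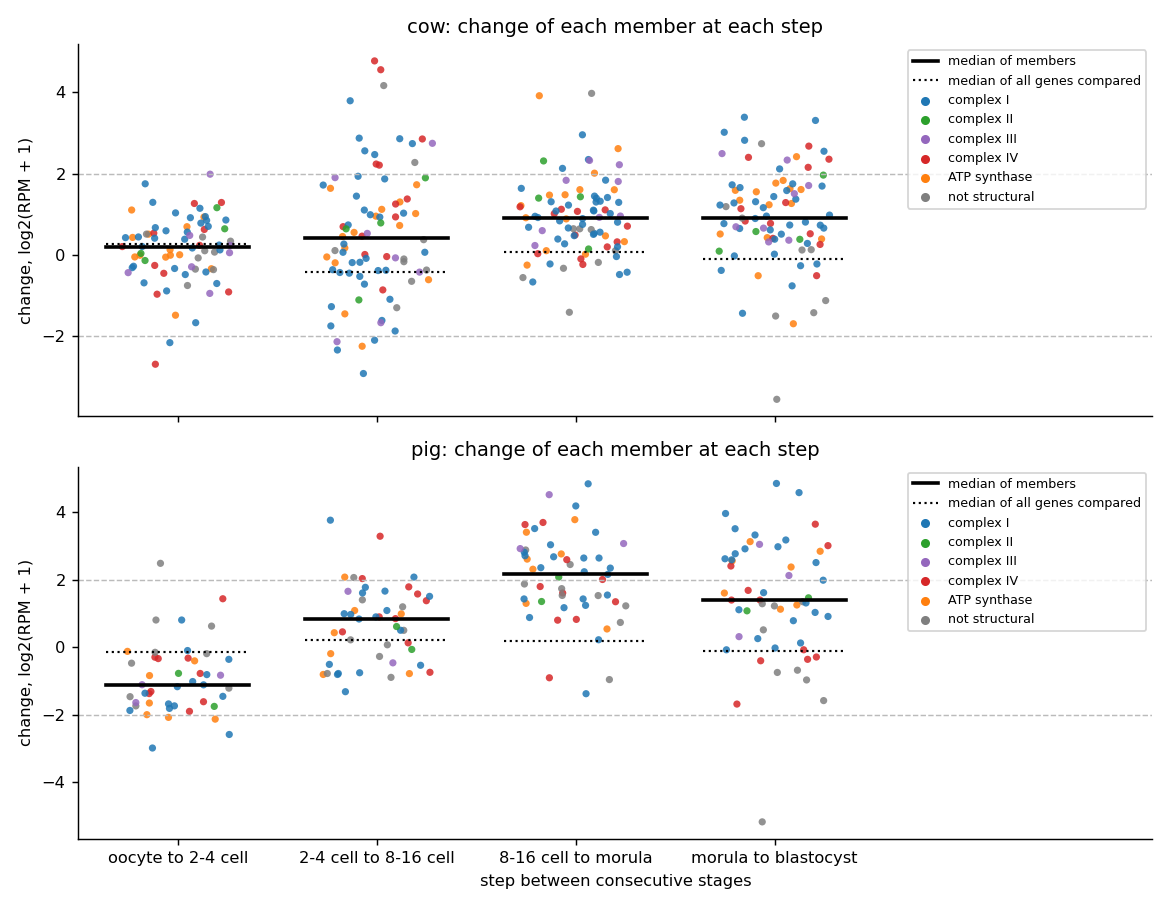
Change of each member compared, in log2(RPM + 1), at each of the 4 steps in cow (top) and pig (bottom), coloured by complex, with the median of the members (solid line) and of all genes compared (dotted line) and dashed lines at the threshold of 2. The pig members lie below 0 at the first step (median -1.12) and above the threshold by their median at the third (2.15), while the cow medians at the last 2 steps are 0.91 and 0.90.

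Both species were compared directly through the members found in both tables. Of 50 compared in each from oocyte to blastocyst, 26 rose in both, against 11.1% of shared genes. None fell in both and 1 was called in opposite directions. In both species 44 were higher in the blastocyst, against 37.1% of shared genes, and 3 were lower, against 31.3%. A further 13 rose in pig alone and 4 in cow alone, the latter being NDUFS3, SDHB, COX6A1 and NDUFAF6. No share of shared genes was worked out for falls in both, opposite calls or rises in 1 species alone. The difference between the species was not tested, and the tables were made separately.

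**Figure D4:**
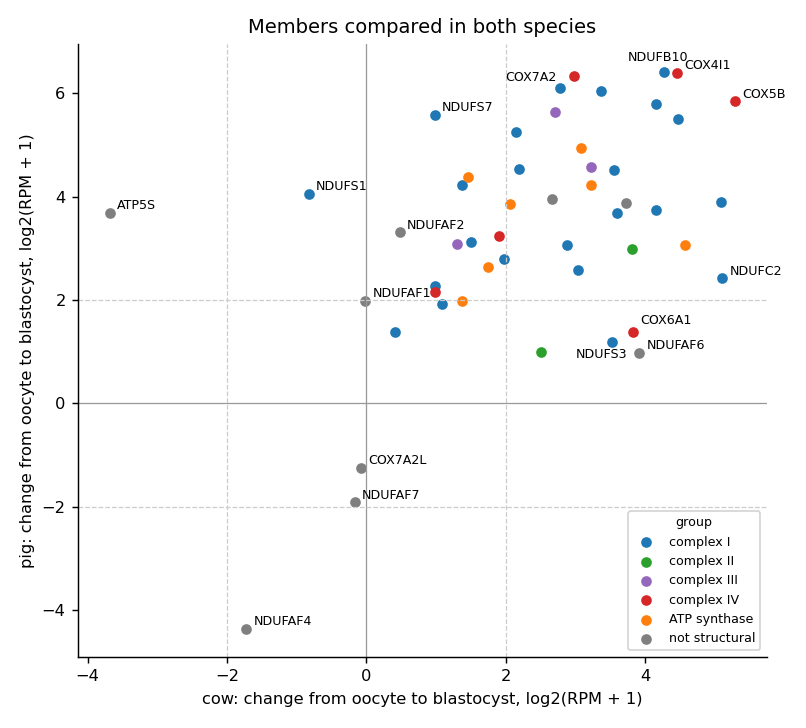
Change from oocyte to blastocyst in log2(RPM + 1) of the 50 members compared in both species, cow on the horizontal axis and pig on the vertical axis, coloured by complex, with dashed lines at the threshold of 2. Most structural subunits lie in the upper right, 26 members beyond both thresholds, and the points left of or below 0 are NDUFS1 and the non-structural ATP5S, NDUFAF1, NDUFAF4, NDUFAF7 and COX7A2L.

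The mitochondrially encoded partners of these subunits took another course in pig, and in cow around the 8-16 cell stage. The 10 rows of mitochondrial protein genes summed to 7871, 10710, 47531, 25174 and 51098 RPM in cow and 59175, 121407, 105901, 141502 and 101342 RPM in pig. In cow the sum was 4.44 times higher at the 8-16 cell stage than at the 2-4 cell stage, 0.53 times that in the morula and 2.03 times higher again in the blastocyst. In pig it was 2.05 times higher at the 2-4 cell stage than in the oocyte, the step at which the nuclear structural members were 2.44 times lower. Of the 10 rows, all rose from oocyte to blastocyst in cow, against 21.8% of all genes, with a median change of 2.85. None rose in pig, against 26%, with a median of 1.002. Over that period the mitochondrial sum was 6.49 times higher in cow, beside 5.46 times for the nuclear structural members. In pig these values were 1.71 and 9.21 times.

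Mitochondrial protein reads per nuclear structural read were 7.05, 8.84, 28.01, 8.80 and 8.38 in cow and 82.3, 411.5, 205.5, 51.3 and 15.3 in pig. The cow ratio was thus close to its starting value at every stage but the 8-16 cell stage, while the pig ratio was highest at the 2-4 cell stage and lowest in the blastocyst. The number of structural members measured, 81 in cow and 52 in pig, differs between the species, so that the ratios do not compare cow with pig. The rows named ATP8 and ND4L span more bases than the genes of those names, up to 1668, and may hold reads of neighbouring genes, which was not tested. All mitochondrial reads together, most of them outside these 10 rows in the cow blastocyst, were 4.40%, 2.74%, 10.7%, 9.15% and 30.2% of reads in cow and 6.06%, 12.4%, 10.9%, 16.3% and 18.6% in pig.

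**Figure D5:**
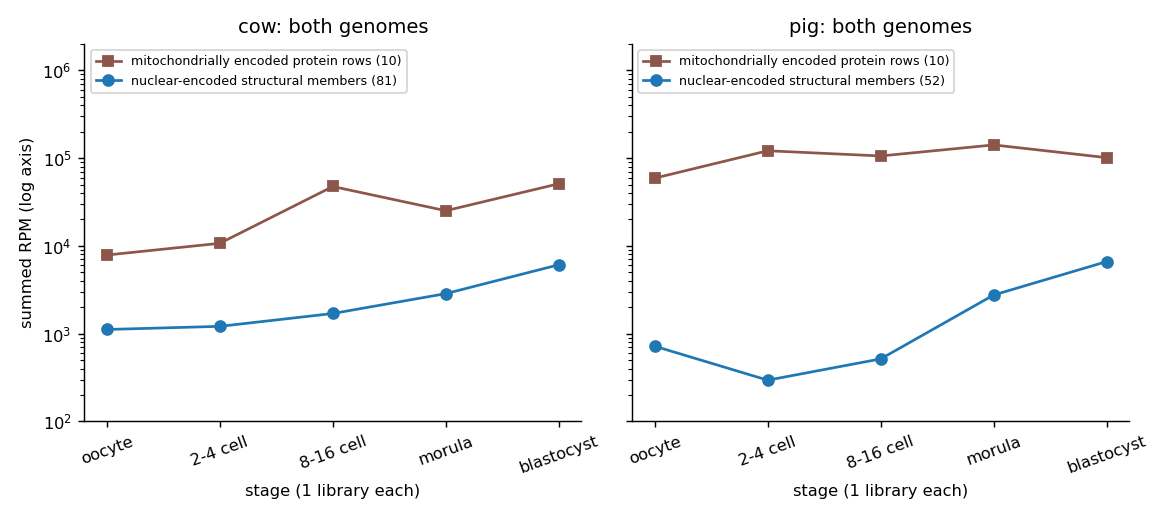
Summed level (RPM, log axis) of the 10 mitochondrially encoded protein rows and of the nuclear-encoded structural members, 81 in cow (left) and 52 in pig (right), at the 5 stages, 1 library per point. Both lines end higher than they start in cow, whereas in pig the nuclear line goes from 719.4 to 6626 RPM with a low at the 2-4 cell stage and the mitochondrial line only from 59175 to 101342 RPM.

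Genes that serve the chain without belonging to it were followed in the same way. Of 39 assembly factors compared in cow, 13 rose and none fell from oocyte to blastocyst, with a median of 1.21, beside 21.8% and 18.4% of all genes. Of 33 in pig 18 rose and 1 fell, with a median of 2.38, beside 26% and 19.2%. These lists include NDUFAF1 to NDUFAF7. COX17, the copper chaperone of complex IV, had 0.811, 0.901, 6.63, 13.6 and 40.6 RPM in cow and 2.37, 0, 6.001, 19.3 and 64.9 RPM in pig. COX11, another copper protein of complex IV, had 5.68, 4.73, 22.8, 6.41 and 0.776 RPM in cow and 11.5, 5.56, 6.95, 12.3 and 12.1 RPM in pig, with no called change over the whole period. Cytochrome c, CYCS, the carrier between complexes III and IV, had 81.5, 100.03, 265.1, 225.2 and 295.4 RPM in cow and 64.8, 58.2, 79.9, 462.9 and 530.1 RPM in pig.

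Regulators of respiratory chain genes and of mitochondrial DNA were followed as a further list. Of 18 compared in cow 7 rose and 2 fell over the whole period, beside 21.8% and 18.4% of all genes, and of 17 in pig 7 rose and none fell, beside 26% and 19.2%. From morula to blastocyst none rose in either species, beside 11.9% and 13.8% of all genes, and 1 in cow and 3 in pig fell, beside 11.5% and 13.8%, which is no more than the background in cow and near it in pig. NRF1, a transcription factor of respiratory chain genes, had 4.87, 7.66, 68.5, 102.1 and 36.9 RPM in cow and 10.1, 49.3, 61.3, 103.6 and 54.7 RPM in pig. TFAM, which packages and transcribes mitochondrial DNA, had 1.01, 2.03, 39.8, 37.96 and 22.99 RPM in cow and 0.296, 6.77, 45.5, 160.2 and 82.3 RPM in pig. Both were highest at the 8-16 cell stage or in the morula, before the members' own highest stage.

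PPARGC1A, a coactivator of mitochondrial biogenesis, had 134.1, 161.5, 36.1, 4.87 and 6.91 RPM in cow and fell by 4.09, and in pig it had 0, 8.46, 1.90, 0 and 0 RPM. ESRRB, an orphan nuclear receptor, had 0, 0, 23.2, 100.5 and 212.5 RPM in cow and 18.7, 30.4, 61.9, 321.04 and 157.6 RPM in pig, and rose in both. LRPPRC, which stabilises mitochondrial messenger RNA, had 47.7, 49.1, 273.9, 676.8 and 283.5 RPM in cow and 156.9, 125.9, 86.9, 608.4 and 255.8 RPM in pig, highest in the morula of both.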

How the data were processed

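The authors deposited 1 table per species with log2 values per gene row and stage. The submitters' processing notes name Trim Galore 0.6.4, HISAT2 2.1.0 and the builds UMD3.1 and Sscrofa11.1. How reads were counted, the annotation, strand and duplicate handling are not given in the sources used here, and coordinates are those of the deposited tables. From the values, each log2 value is that of reads per 1000000 (RPM) with 0 reads written as 0.9 of a read, so that read counts and totals could be recovered: all values were whole reads within 0.1%. RPM values, differences of log2(RPM + 1) and Wilson intervals at 95% were computed in Python 3.11.15 with numpy 2.4.6 and pandas 2.3.3, and the counting of changed genes was tested on simulated data. Values at all 5 stages were given for catalytic and core subunits, tissue isoforms, and the 3 largest rises and falls of each comparison, except 1 item that is not reported here. Members, lists and rules were chosen with earlier results of these data known. Each stage had 1 library, so no p-value was computed. Cow symbols were checked against RefSeq gene names (assembly ARS-UCD2.0), which matched 90 of 90, and none of its coordinates were used. Alternatives were other pseudocounts, minimums, thresholds and scalings, equal depth, summed repeated symbols and structural subunits only. No sequences are shown, since no genome or sequence table was used here.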

Additional observations from a re-analysis of the deposited data

Results flagged for a closer look

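A pair of members went opposite ways in cow and pig, a difference that was not tested, since each stage had 1 library. ATP5S, which fell by 3.68 from the cow oocyte to the cow blastocyst (a change of -3.68), stood 3.68 higher in the pig blastocyst, where the oocyte had 0 reads. For ATP5A1, the alpha subunit of ATP synthase, the step from the 2-4 to the 8-16 cell stage was -2.26 in the cow libraries, against 2.07 in those of pig. With median scaling 2 members in place of 5 fell in cow at that step, and 2 in place of 6 rose in pig. Both calls of ATP5A1, which lie close to the threshold of 2, may therefore be lost under that scaling.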

How the results depend on the processing

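No paired analysis was possible because all stages share the replicate number 1, with 1 library each. Of 260 counts of members called under alternatives, 218 stayed within 1.5 times the value reported and 42 did not, and of 130 medians 116 stayed within 0.25, 12 moved further and 2 reversed. Of 1054 changes of single members 1006 stayed within their counting interval, 48 left it, and no called change reversed. The alternatives of members without overlapping rows, members with rows of at least 600 bases and 0 reads taken as 0 were chosen after seeing the data. No alternative can stand in for replicates, and single values under about 10 reads are limited by depth; the cause of the shifts below was not tested except that a threshold of 1 admits more genes and subsets hold fewer members.

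In cow a threshold of 1 in place of 2 gave 9 rises in place of 0 and 4 falls in place of 2 from oocyte to 2-4 cell, 2 falls in place of 1 from oocyte to blastocyst, 29 rises in place of 14 and 14 falls in place of 5 from the 2-4 to the 8-16 cell stage, 38 rises in place of 10 and 1 fall in place of 0 to the morula, and 40 rises in place of 14 and 6 falls in place of 1 to the blastocyst. A pseudocount of 0.5 gave 1 rise from oocyte to 2-4 cell. Median scaling and quantile normalisation each gave 2 falls in place of 5 from the 2-4 to the 8-16 cell stage, and quantile normalisation 2 falls from oocyte to blastocyst. Structural subunits alone left 0 falls from oocyte to blastocyst and 0 from morula to blastocyst. The cow median from oocyte to 2-4 cell, 0.20, reversed to -0.13 with median scaling and -0.10 with quantile normalisation, near 0 in each case.

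In pig a threshold of 1 gave 2 rises in place of 1 and 25 falls in place of 5 from oocyte to 2-4 cell, 4 falls in place of 2 from oocyte to blastocyst, 18 rises in place of 6 and 1 fall in place of 0 to the 8-16 cell stage, 44 rises in place of 29 and 1 fall in place of 0 to the morula, and 37 rises in place of 21 and 3 falls in place of 1 to the blastocyst. A pseudocount of 0.5 gave 9 falls from oocyte to 2-4 cell and 2 from morula to blastocyst, and a minimum of 5 RPM 1 fall from oocyte to blastocyst. Median scaling gave 2 falls from oocyte to 2-4 cell and 2 rises to the 8-16 cell stage, where quantile normalisation gave 2 rises and 1 fall. Structural subunits alone gave 0 rises from oocyte to 2-4 cell, 1 fall from oocyte to blastocyst and 0 from morula to blastocyst. Members overlapping no other row gave 20 rises in place of 42 and 1 fall from oocyte to blastocyst, 1 fall from oocyte to 2-4 cell, 3 rises to the 8-16 cell stage, 13 in place of 29 to the morula, and 11 in place of 21 rises and 0 falls to the blastocyst, and rows of at least 600 bases 1 fall from oocyte to blastocyst.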
